A study of Mus musculus with 2 samples.

Results

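Potassium channel subunits were described in hearts of newborn mice through the protein-coding genes whose symbol begins with Kcn, the root given to pore-forming and accessory subunits of these channels. The rule took 94 of the 21474 protein-coding genes in the tables, which held 43346 genes in all, and left out Kcnq1ot1, a noncoding RNA that carries the same root. The study measured 1 group, hearts at postnatal day 0 from pooled male and female mice of the strain B6NTac;B6NCrl/Lap. Total RNA above 200 nucleotides was depleted of ribosomal RNA and read on both ends for 101 nucleotides in a strand-specific library with spike-in RNAs. Replicate 1 came from 15 mice and replicate 2 from a pool whose number is not given, and both were independent isolates. With no second age, tissue or treatment, the data show which subunits the whole newborn heart expressed and how far 2 pools differed.

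Potassium channels let potassium leave the heart cell and so end each action potential and hold the resting voltage. A channel is built from pore-forming subunits, which include voltage-gated ones with 6 membrane spans, inward rectifiers with 2 and two-pore background channels with 4. Accessory subunits change where the channel goes and how fast it opens. Heart physiologists name the resulting currents by their behaviour, and the genes below are ordered by those currents.

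Levels are given as TPM, an abundance per length relative to all transcripts of the library. Read numbers are expected counts, the estimated number of fragments assigned to a gene. Replicate 1 had 69946215 such counts on genes, of which the 94 genes held 67361 (0.0963%), and replicate 2 had 73615802, of which they held 79026 (0.107%). All 4 cardiomyocyte markers were high, with a summed level of 2193 TPM in replicate 1 and 2278 TPM in replicate 2, as the tissue label says. Markers of some other cell types differed between libraries. Smooth muscle markers, 4 of 4 detected, summed to 306 TPM in replicate 1 and 629 TPM in replicate 2. The urothelial markers summed to 0.40 TPM in replicate 1 and 62.3 TPM in replicate 2, and 0 of 4 reached 1 TPM in both. Lymphoid and thymus markers summed to 9.59 TPM in replicate 1 and 1.15 TPM in replicate 2, 0 of 5 reached 1 TPM in both, and Cd3e was at 0 counts in both. In whole tissue, fewer cells of a type and less RNA per cell cannot be told apart.

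The feature that makes a pore selective for potassium can be read in the coding sequence. The stretches below cover the selectivity filter of 5 detected inward rectifiers, of 3 other leading pore subunits and of Kcnh2. They are shown because they hold the bases searched for, and they do not by themselves separate the channel types. Capitals mark an in-frame match, on the coding strand, to GGNTANGGN (the GYG form) or GGNTTNGGN (the GFG form), where N is any base, with the codons before it, whose middle bases had to be C and then T. In Kcnh2 the match was to GGNTTNGGN after a codon that begins with GT. All were read 5′ to 3′ from GENCODE M21 coding sequences on GRCm38, and where the stretch is spliced the coordinates span the intron.
Kcnq1, chr7:143184540-143191461, plus strand, spliced: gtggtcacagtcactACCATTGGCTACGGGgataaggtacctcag
Kcna5, chr6:126533730-126533774, minus strand: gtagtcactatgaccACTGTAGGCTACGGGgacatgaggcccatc
Kcnk3 first pore, chr5:30588578-30621913, plus strand, spliced: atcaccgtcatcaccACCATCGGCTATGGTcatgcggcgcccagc
Kcnk3 second pore, chr5:30622187-30622231, plus strand: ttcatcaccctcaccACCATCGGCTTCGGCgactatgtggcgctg
Kcnj2, chr11:111072192-111072236, plus strand: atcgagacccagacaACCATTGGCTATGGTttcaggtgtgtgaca
Kcnj3, chr2:55437612-55437656, plus strand: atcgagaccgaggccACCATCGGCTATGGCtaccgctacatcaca
Kcnj5, chr9:32322544-32322588, minus strand: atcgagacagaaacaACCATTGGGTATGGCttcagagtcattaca
Kcnj8, chr6:142566433-142566477, minus strand: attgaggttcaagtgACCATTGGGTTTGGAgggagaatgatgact
Kcnj11, chr7:46099481-46099525, minus strand: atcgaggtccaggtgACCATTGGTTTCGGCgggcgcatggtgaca
Kcnh2, chr5:24325540-24325584, minus strand: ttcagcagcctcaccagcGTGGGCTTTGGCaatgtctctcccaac

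Of the 77 pore-forming genes, 68 held the GYG or GFG form preceded by codons with middle bases C and then T. This longer match stood once in 57 of them and more than once in 11, and the 11 were all two-pore genes. None of the 17 accessory genes held the longer match, and 1.24% of 21244 other protein-coding genes with a coding sequence did. At so low a share, 17 genes are too few to show a lack. The 9 pore-forming genes without the longer match were Kcnh1, Kcnh2, Kcnh3, Kcnh4, Kcnh6, Kcnh7, Kcnh8, Kcnk1 and Kcnk7. The 7 Kcnh genes among them did hold the GFG form, GGNTTNGGN, but after a codon that begins with GT. That second match was found in 12.8% of the 94 genes and 0.720% of the others. It was written for the Kcnh form, so the difference between these shares is not a test. Kcnk4, Kcnk10, Kcnt1, Kcnt2 and Kcnu1 held it too. Among the 15 inward rectifiers, Kcnj8 and Kcnj11 alone carried the GFG form. These are the pore subunits of the ATP-sensitive channel.

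A small number of the 94 genes carried most of the signal. A level of 1 TPM or more in both libraries was reached by 18 of the 94 genes, or 19.1%, against 47.1% of all protein-coding genes. By posterior mean estimates there were 22, with Kcnd3, Kcnab2, Kcnn2 and Kcnj13 added, the last of which had 0 counts in both libraries. Another 10 reached it in 1 library alone, 6 of them in replicate 1 and 4 in replicate 2. Of the remaining genes, 36 had counts but stayed under 1 TPM in both libraries and 30 had no count in either, which is 31.9% of the family and 30.3% of protein-coding genes. For a gene with no count, the floor of 3 counts lay between 0.00297 and 0.0575 TPM, by counting error alone.

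**Figure D1:**
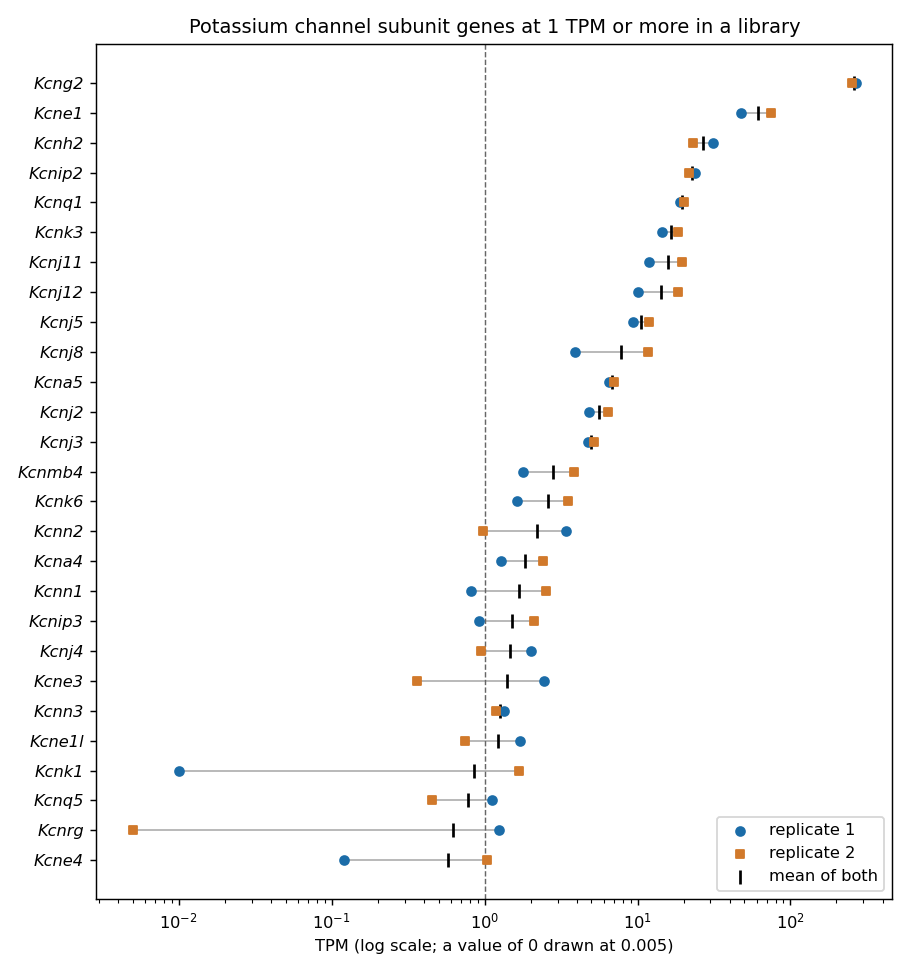
TPM (log scale) of the named genes of the family at 1 TPM or more in a library, with replicate 1 as a circle, replicate 2 as a square and the mean as a bar; the dashed line is 1 TPM and a value of 0 is drawn at 0.005. Kcng2 stands apart at 269 and 254 TPM, and the points of a gene spread apart towards the bottom of the order.

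The order of levels was led by Kcng2, Kcne1, Kcnh2, Kcnip2, Kcnq1, Kcnk3, Kcnj11 and Kcnj12, the 8 genes at 10 TPM or more in both libraries. Of the 23 pairs of neighbours in the order of the 24 genes at a mean of 1 TPM, 17 had values that overlapped between libraries. The lower value of Kcng2, Kcne1, Kcnip2, Kcnq1, Kcna5 and Kcnj3 was above the higher value of the next gene. Elsewhere, as between Kcnk3, Kcnj11, Kcnj12, Kcnj5, Kcnj8 and Kcna5, the values of neighbours overlapped. Over transcripts of 700 nucleotides or more Kcng2 stayed first and Kcne1 was 11th, at 6.58 ± 0.502 TPM. Across the 94 genes the libraries had a Pearson r of 0.957 on log2(TPM + 1), beside 0.965 over protein-coding genes, and genes are not independent replicates.

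Summed by subfamily, the 94 genes reached 507 ± 24.4 TPM (SD, n = 2). The 4 Kcng genes took 262 ± 10.6 TPM of it, the 5 Kcne genes 65.4 ± 17.5, the 15 Kcnj genes 60.8 ± 19.2 and the 8 Kcnh genes 27.7 ± 6.49. By reads the order was another one. Kcnj genes held 19.7% of the family's counts in replicate 1 and 24.7% in replicate 2, Kcng genes 25.2% and 24.4%, Kcnh genes 12.9% and 9.18%, and Kcne genes 5.62% and 6.37%. The 14 two-pore Kcnk genes summed to 20.6 ± 5.57 TPM and the 8 Kcna genes to 9.97 ± 0.842 TPM, while the 3 Kcnd genes reached 1.53 ± 0.332 TPM (8.42 by posterior mean estimates) and the 2 Kcnv genes had no count.

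**Figure D2:**
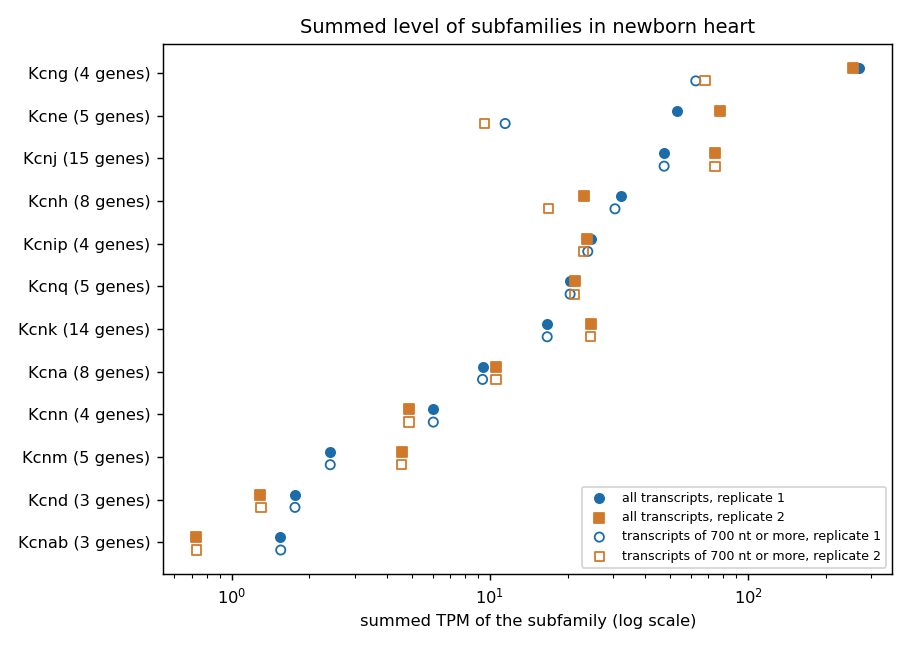
Summed TPM (log scale) of 12 subfamilies in replicate 1 (circles) and replicate 2 (squares), with filled symbols for all transcripts and open symbols for transcripts of 700 nucleotides or more. The Kcng sum lies at 269 and 254 TPM over all transcripts and at 65.4 TPM on average over the longer ones, and the Kcne sum drops to 10.5 TPM, while the Kcnj, Kcnq and Kcnk sums stay where they are.

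Kcng2 encodes a silent voltage-gated subunit, one that forms no channel alone and modifies other voltage-gated channels. The gene (ENSMUSG00000059852.7, GRCm38 chr18:80294546-80364254) stood at 269 TPM in replicate 1 and 254 TPM in replicate 2, from 17003 and 19258 counts. It was the highest of the family on either scale in both libraries, above 99.3% of protein-coding genes by mean TPM, and it made up 51.7% of the family's mean TPM. How far it stood above the rest rested on its transcripts. The transcript Kcng2-202, annotated at 279 nucleotides, held 206 TPM in replicate 1 and 186 TPM in replicate 2 from 283 and 225 counts, because its effective length was 13.0 and 10.9 nucleotides. The transcript Kcng2-201, of 2813 nucleotides, held 62.7 TPM in replicate 1 and 68.1 TPM in replicate 2 from 16708.9 and 19033 counts. Kcng2-201 thus took 98.3% and 98.8% of the reads but 23.3% and 26.8% of the TPM. Over transcripts of 700 nucleotides or more, Kcng2 averaged 65.4 ± 3.78 TPM and was still first of the family in both libraries. An unconfirmed gene model on the opposite strand, D330025C20Rik, overlaps it and held 2747 counts in replicate 1 and 1371 in replicate 2, and the strand setting of the authors' counting is not given.

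Of the 10 silent modifier subunits listed, Kcng2 alone was detected, and 6 had no count in either library (Kcng1, Kcng3, Kcng4, Kcns2, Kcnv1 and Kcnv2). Kcnf1 had 0 counts in replicate 1 and 309 in replicate 2, which is 0.62 TPM. Kcns3 had 64 and 5 counts and Kcns1 16 and 0.

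The slow delayed rectifier IKs joins Kcnq1, the pore subunit, with Kcne1, an accessory subunit of a single membrane span that slows its opening. Both were detected, 2 of 2 on the list, with a summed level of 66.9 TPM in replicate 1 and 95.2 TPM in replicate 2. Kcne1 (ENSMUSG00000039639.6, chr16:92345982-92359468) stood at 47.8 TPM in replicate 1 and 75.1 TPM in replicate 2, from 3250 and 4564 counts, and was higher in replicate 2 on both scales. Kcnq1 (ENSMUSG00000009545.10, chr7:143106362-143427042) stood at 19.1 TPM in replicate 1 and 20.05 TPM in replicate 2, from 5522 and 4872 counts. The libraries lay close together for Kcnq1 in these TPM values, while its count was higher in replicate 1 and its effective length was 2740 and 2194 nucleotides. By posterior mean estimates it stood at 33.3 TPM in replicate 1 and 21.2 TPM in replicate 2, a log2 difference of -0.67, and in replicate 1 the transcripts Kcnq1-204 and Kcnq1-205, of 196 and 182 nucleotides and with 0 counts, were given 5.36 and 7.72 TPM.

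Whether Kcne1 lay above or below its partner changed with the transcripts counted. The 601-nucleotide transcript Kcne1-202 held 41.5 TPM in replicate 1 and 68.2 TPM in replicate 2, or 87.0% and 90.8% of the gene. The 3155-nucleotide Kcne1-201 held 6.22 and 6.93 TPM but 57.9% and 48.2% of the reads. Kcne1 over Kcnq1 was 1.32 in replicate 1 and 1.90 in replicate 2 as a log2 ratio of TPM, and -1.60 and -1.52 over transcripts of 700 nucleotides or more. In reads not divided by length it was -0.76 and -0.09. Both transcripts hold the same uninterrupted coding sequence of 387 bases, so the product does not depend on which is used. Its first 60 bases are shown because they stand in both transcripts, unlike those of Kcnh2 below, and the first codon is in capitals.
Kcne1-201 and Kcne1-202, chr16:92348895-92348954, minus strand, 5′ to 3′: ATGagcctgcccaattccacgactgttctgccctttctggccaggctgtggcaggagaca

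Kcnq1 also differed between libraries in its transcripts. The full-length Kcnq1-201 held 19.1 TPM and 100% of the gene in replicate 1, and 12.7 TPM and 63.4% in replicate 2. In replicate 2 the remainder, 7.34 TPM from 1014 counts, was given to Kcnq1-202, which shares 1320 coding bases with Kcnq1-201 and lacks 684, and which had 0 counts in replicate 1. The antisense RNA Kcnq1ot1 lies within the gene on the opposite strand, and Gm37364, an unconfirmed model on the same strand, held 199 counts in replicate 1 and 827 in replicate 2. Their part in the Kcnq1 counts was not tested.

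The rapid delayed rectifier IKr is carried by the channel that Kcnh2 encodes, the ERG channel, whose loss or block prolongs the QT interval in people. Kcnh2 (ENSMUSG00000038319.10, chr5:24319589-24351604) stood at 31.1 TPM in replicate 1 and 22.9 TPM in replicate 2, from 7978 and 7056 counts, and had the second highest count of the family in replicate 1 and the third highest in replicate 2. Kcne2, an accessory subunit proposed to join it, was under 1 TPM in both libraries, at 0.97 TPM in replicate 1 and 0.44 TPM in replicate 2 from 144 and 68 counts. Of the 2 genes listed, 1 was therefore detected. As a log2 ratio, Kcnh2 over Kcne2 was 4.86 in replicate 1 and 5.41 in replicate 2. The accessory genes Kcne1 and Kcne2 lie 47.9 kb apart on chromosome 16, and Kcne1 was above Kcne2 in both libraries, by gene TPM and by counts.

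The difference in Kcnh2 between libraries lay in its minor transcripts. Kcnh2-201 encodes the long form of the channel, and it was at 15.6 TPM in replicate 1 and 15.5 TPM in replicate 2, or 81.0% and 95.8% of the reads. Kcnh2-202 begins at an internal exon and encodes the short form known as ERG1b, which shares 2352 coding bases and has 108 of its own, and it was at 3.13 TPM from 959 counts in replicate 1 and 0.08 TPM from 26.5 counts in replicate 2. The rest was given to 3 noncoding transcripts of 605 to 741 nucleotides, which together with the short form differed from library to library. The first 60 coding bases of each form are shown because they are where the products part, with the first codon in capitals.
Kcnh2-201, chr5:24351224-24351283, minus strand, 5′ to 3′: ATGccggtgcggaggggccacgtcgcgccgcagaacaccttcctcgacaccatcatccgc
Kcnh2-202, chr5:24329213-24329272, minus strand, 5′ to 3′: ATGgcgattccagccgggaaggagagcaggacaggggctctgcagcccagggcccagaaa

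The transient outward current Ito repolarises the mouse ventricle early in the action potential, and it is carried by Kcnd2 and Kcnd3 together with the calcium-binding subunit Kcnip2. Kcnip2 (ENSMUSG00000025221.11, chr19:45791839-45816061) was well expressed, at 23.7 TPM in replicate 1 and 21.6 TPM in replicate 2 from 5048 and 4842 counts. The pore genes were under 1 TPM by the same estimate. Kcnd2 was at 0.94 TPM in replicate 1 and 0.63 TPM in replicate 2, Kcnd3 at 0.76 and 0.64 TPM, and Kcnd1 at 0.06 and 0.02 TPM. Kcna4, the pore subunit of the slow form of the current, was at 1.29 TPM in replicate 1 and 2.40 TPM in replicate 2 from 614 and 1197 counts. Of the 4 genes listed for Ito, 2 were detected, with a sum of 26.7 TPM in replicate 1 and 25.3 TPM in replicate 2. Kcnip2 exceeded Kcnd2 by a log2 ratio of 4.51 in replicate 1 and 4.89 in replicate 2, and Kcnd3 by 4.79 and 4.87, and it exceeded both over transcripts of 700 nucleotides or more and in reads. Kcnd3 over Kcnd2 was -0.27 in replicate 1 and 0.02 in replicate 2, so neither pore gene stood above the other by this estimate. In reads not divided by length the ratio was -1.34 in replicate 1 and -1.01 in replicate 2, with Kcnd2 above Kcnd3 in both. The authors' posterior mean estimates put Kcnd3 elsewhere, at 5.74 TPM in replicate 1 and 9.41 TPM in replicate 2. Of that, 4.99 and 8.77 TPM were given to Kcnd3-205, a transcript of 199 nucleotides with an effective length of 1.88 and 1.02 nucleotides and 0 counts in both libraries. With those estimates Kcnd3 over Kcnd2 was 2.50 and 3.70, and Kcnip2 over Kcnd3 averaged 1.62, below the 4.83 of the other estimate.

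Kcnip2 was split between 2 coding transcripts. Kcnip2-202 held 48.5% of its TPM in replicate 1 and 40.8% in replicate 2, and Kcnip2-209 held 48.1% and 54.5%, so that the leading transcript was not the same in both libraries. They differ by 54 coding bases present in Kcnip2-209 alone. These bases are shown in capitals, with 15 coding bases on either side, because they are the whole difference between the 2 products.
Kcnip2-209, chr19:45795690-45797105, minus strand, spliced, 5′ to 3′: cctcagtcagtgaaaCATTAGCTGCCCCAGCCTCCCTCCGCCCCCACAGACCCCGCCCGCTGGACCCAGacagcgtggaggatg

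The inward rectifier current IK1 holds the resting voltage of ventricular muscle and is carried by subunits of the Kcnj2 group. Kcnj12 (ENSMUSG00000042529.10, chr11:61022564-61071131) stood at 10.1 TPM in replicate 1 and 18.3 TPM in replicate 2, from 2146 and 4066 counts. Kcnj2 (ENSMUSG00000041695.2, chr11:111066164-111076821) stood at 4.80 TPM in replicate 1 and 6.39 TPM in replicate 2, from 2612 and 3651 counts. Kcnj2 over Kcnj12 was -1.06 in replicate 1 and -1.51 in replicate 2 per length, and 0.28 and -0.16 in reads, since the Kcnj2 transcript is more than 5 kb long. Kcnj4 was at 2.00 TPM in replicate 1 and 0.95 TPM in replicate 2, and Kcnj14 had 23 counts in replicate 1 and 0 in replicate 2. Of the 4 genes listed, 2 were detected, with a sum of 17.0 TPM in replicate 1 and 25.7 TPM in replicate 2.

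The ATP-sensitive current couples the membrane to the energy state of the cell, through pores of Kcnj11 or Kcnj8 that are each surrounded by a sulfonylurea receptor, Abcc8 or Abcc9. Kcnj11 (ENSMUSG00000096146.1, chr7:46093953-46100764) was at 11.9 TPM in replicate 1 and 19.6 TPM in replicate 2, from 1112 and 1918 counts. Kcnj8 (ENSMUSG00000030247.7, chr6:142564837-142571614) was at 3.93 TPM in replicate 1 and 11.7 TPM in replicate 2, from 787 and 2468 counts. Both were higher in replicate 2, Kcnj8 by 1.53 on the log2 scale and Kcnj11 by 0.69. Kcnj11 over Kcnj8 was 1.58 in replicate 1 and 0.73 in replicate 2 per length, but 0.50 and -0.36 in reads. Kcnj8 is known in the mouse for its expression in smooth muscle and pericytes. All 4 smooth muscle markers were higher in replicate 2, Myh11 at 1.01 TPM in replicate 1 and 24.97 TPM in replicate 2. So were all 4 pericyte markers, which summed to 42.1 TPM in replicate 1 and 61.0 TPM in replicate 2. Their log2 differences were 0.96 for Rgs5, 0.50 for Pdgfrb, 0.15 for Cspg4 and 0.22 for Notch3. The rise was not particular to these lists, since fibroblast markers summed to 138 TPM in replicate 1 and 179 TPM in replicate 2. Endothelial markers, at 117 and 111 TPM, did not rise. The part of any of these cells in the Kcnj8 difference was not tested.

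Each pore gene lies beside the gene of a receptor, Kcnj11 3.76 kb from Abcc8 on chromosome 7 and Kcnj8 16.2 kb from Abcc9 on chromosome 6. Abcc9 was at 25.5 TPM in replicate 1 and 28.03 TPM in replicate 2, and Abcc8 at 9.25 and 10.3 TPM. Both receptors thus lay close together between libraries, while both pores did not. Abcc9 over Abcc8 was 1.45 in replicate 1 and 1.44 in replicate 2. Abcc9 was divided between Abcc9-202, with 62.0% and 62.8% of its TPM, and Abcc9-203, with 37.7% and 36.9%.

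The acetylcholine-activated current, through which the vagus nerve slows the heart, needs Kcnj3 and Kcnj5 together. Kcnj5 (ENSMUSG00000032034.5, chr9:32314707-32344350) was at 9.38 TPM in replicate 1 and 11.8 TPM in replicate 2, from 4167 and 5514 counts. Kcnj3 (ENSMUSG00000026824.7, chr2:55435970-55598145) was at 4.75 TPM in replicate 1 and 5.21 TPM in replicate 2, from 1865 and 1461 counts. Both were detected, and Kcnj5 over Kcnj3 was 0.97 in replicate 1 and 1.17 in replicate 2 as a log2 ratio of TPM. In reads it was 1.16 in replicate 1 and 1.91 in replicate 2, so Kcnj5 lay above Kcnj3 in both libraries on both scales. The ratio did not pass the limit for unequal pairs given below, which comes from many single genes and not from this pair. Atrial markers, 3 of 3 detected, summed to 1718 TPM in replicate 1 and 1175 TPM in replicate 2, so that Kcnj5 went the other way. Kcnj3 also went the other way in TPM, but in reads it was lower in replicate 2, by a log2 difference of -0.43. Kcnj3 was read from 2 transcripts with an identical coding sequence of 1503 bases. The longer one, Kcnj3-201, held 65.9% of the gene in replicate 1 and 32.3% in replicate 2, and the effective length changed with it, to 3718 and 2532 nucleotides.

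Among the delayed rectifiers that act in later repolarisation in the adult mouse, Kcna5 (ENSMUSG00000045534.3, chr6:126532551-126535412) was at 6.53 TPM in replicate 1 and 7.06 TPM in replicate 2, from 1755 and 1991 counts, and the libraries lay close together on both scales. Kcna5 lay above Kcna4 by a log2 ratio of 2.25 in replicate 1 and 1.52 in replicate 2. Other genes listed with it were low. Kcna2 had 74 counts in replicate 1 and 63 in replicate 2, or 0.22 and 0.18 TPM, Kcnc1 had 4 and 0 counts, and Kcna1, which lies 105 kb from Kcna5 in the same gene cluster, had 0 in both.

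Among two-pore background channels, which carry a leak of potassium at rest, Kcnk3 was the only one above 10 TPM. Kcnk3 (ENSMUSG00000049265.6, chr5:30588170-30625271), an acid-sensitive channel, was at 14.4 TPM in replicate 1 and 18.5 TPM in replicate 2, from 5363 and 7216 counts, and 7216 was the second highest count of the family in replicate 2. Kcnk6 was at 1.64 TPM in replicate 1 and 3.53 TPM in replicate 2, from 656 and 1487 counts. Kcnk2, a stretch-activated channel described in rodent heart, had 0 counts in replicate 1 and 9 in replicate 2, so Kcnk3 over Kcnk2 was 7.18 and 7.16, a ratio that the pseudocount holds down. Kcnk1 had 3 counts in replicate 1 and 376 in replicate 2, Kcnk5 182 and 158, and Kcnk13 8 and 41, and Kcnk4 and Kcnk9 had none. In all, 2 of the 8 genes found were detected, with a sum of 16.7 TPM in replicate 1 and 24.6 TPM in replicate 2.

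Calcium-activated channels were low. Of the 9 genes listed, 2 were detected, Kcnn3 at 1.33 TPM in replicate 1 and 1.18 TPM in replicate 2 and the accessory gene Kcnmb4 at 1.77 and 3.84 TPM. Kcnn2, a small-conductance channel known from the atrium, was at 3.40 TPM in replicate 1 and 0.98 TPM in replicate 2, while its relative Kcnn1 was at 0.81 and 2.53 TPM, so the order of the 2 was not the same in both libraries. Kcnn2 over Kcnn3 was 1.29 in replicate 1 and -0.25 in replicate 2. The large-conductance pore gene Kcnma1 was at 0.25 and 0.30 TPM and its smooth muscle partner Kcnmb1 at 0.39 and 0.42 TPM. Neither followed the smooth muscle markers, whose sum was more than doubled in replicate 2 (306 TPM in replicate 1 and 629 TPM in replicate 2). Kcnn4 was at 0.49 and 0.17 TPM, and Kcnmb2 and Kcnmb3 had no count.

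The remaining accessory subunits were near or under the threshold. Of the 5 Kcne genes, Kcne1 alone was detected in both libraries. Kcne3 was at 2.45 TPM in replicate 1 and 0.36 TPM in replicate 2, from 137 and 22 counts, Kcne4 at 0.12 and 1.04 TPM, from 30 and 272 counts, and Kcne1l, also called Kcne5, at 1.70 and 0.75 TPM. These 3 genes crossed 1 TPM in 1 library each, Kcne3 and Kcne1l in replicate 1 and Kcne4 in replicate 2. Kcne1 over Kcne4 was 7.77 in replicate 1 and 6.04 in replicate 2. Of the 7 beta and KChIP subunits, 1 was detected. Kcnip3 was at 0.92 TPM in replicate 1 and 2.09 TPM in replicate 2, Kcnab2 at 0.75 and 0.39, Kcnab3 at 0.73 and 0.29 and Kcnab1 at 0.06 and 0.05, and Kcnip1 and Kcnip4 had no count.

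Channels known mainly from neurons were low. None of the 9 genes for the M current and the EAG group was at 1 TPM in both libraries, and they summed to 2.13 TPM in replicate 1 and 0.67 TPM in replicate 2. The highest was Kcnq5, at 1.11 and 0.45 TPM, then Kcnh3 at 0.54 and 0.04 and Kcnh7 at 0.40 and 0.09. Kcnh1 and Kcnq3 had 39 and 16 counts in replicate 1 and 63 and 0 in replicate 2, and Kcnh4, Kcnh5 and Kcnh8 had none. The neuronal markers moved alike, with a sum of 2.13 TPM in replicate 1 and 0.52 TPM in replicate 2, 0 of 5 detected and Snap25 at 0 counts, and their part was not tested. Of the sodium-activated pair, Kcnt2 had 117 counts in replicate 1 and 61 in replicate 2 and Kcnt1 1 and 168, with a summed level of 0.38 and 0.37 TPM.

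Ratios between partners were set against the spread between libraries. Ratios were of TPM plus 0.1, and unequal pairs were those with a log2 ratio of 1 sign and beyond 2.15 in both libraries, the 95th percentile of absolute differences between the replicates over genes at a mean of 1 TPM. By this rule 5 of 16 pairs were unequal, Kcnip2 over each of Kcnd2 and Kcnd3, Kcnh2 over Kcne2, Kcnk3 over Kcnk2 and Kcne1 over Kcne4. The lower gene of each of these 5 pairs had a mean under 1 TPM, so the limit does not measure the spread at its level. The limit is also a spread of single genes between libraries and not of ratios between genes. Posterior mean estimates, with a limit of 1.99, also gave 5, but with Kcnd3 over Kcnd2 in place of Kcnip2 over Kcnd3. With the limit of 1.29 taken from genes at a mean of 10 TPM there were 9, which added Kcne1 over Kcnq1, Abcc9 over Abcc8 and Kcna5 over Kcna4 among others. The sign was the same in both libraries for 14 of 16 pairs, and the exceptions were Kcnd3 with Kcnd2 and Kcnn2 with Kcnn3.

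**Figure D3:**
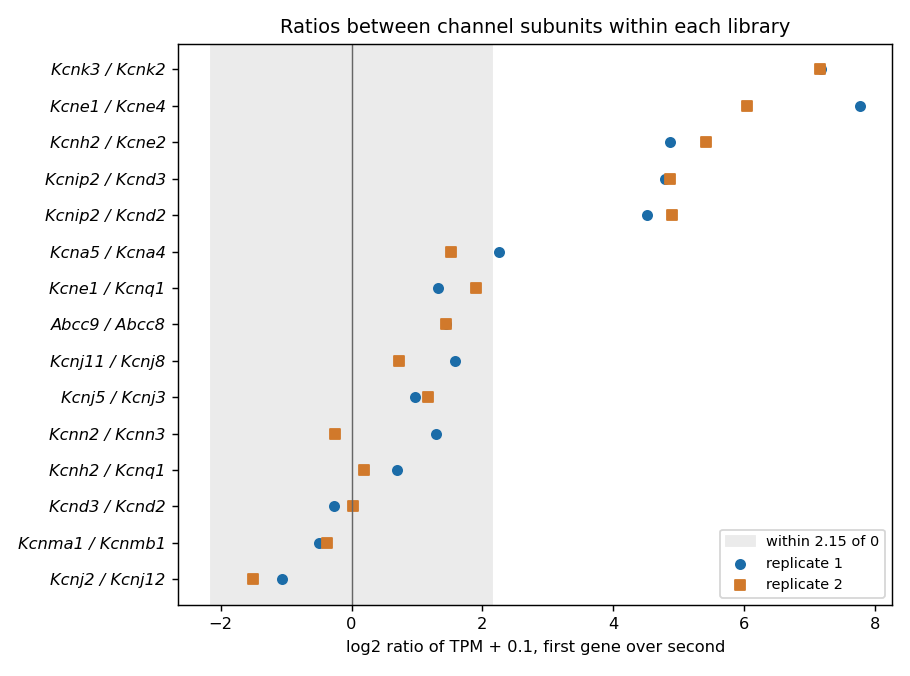
Log2 ratio of TPM plus 0.1 of the first gene over the second within replicate 1 (circles) and replicate 2 (squares) for 15 of the 16 pairs; the grey band spans the limit of 2.15 on either side of 0. The 5 pairs at the top lie outside the band in both libraries, and Kcna5 over Kcna4 crosses its edge in 1 library.

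The libraries differed most for genes of low level. Among the 24 genes at a mean of 1 TPM, 9 or 37.5% were at least 2-fold apart between libraries in TPM, beside 19.0% of all 11594 genes at that level. The 5 higher in replicate 2 (background 10.1%) were Kcnj8, Kcnn1, Kcnip3, Kcnmb4 and Kcnk6, and the 4 lower in replicate 2 (background 8.90%) were Kcne3, Kcnn2, Kcne1l and Kcnj4. Of these 9, 6 were under 1 TPM in 1 library and met the level through the other, and of the 3 left Kcnj8 alone had a mean above 5 TPM. The same 9 were at least 2-fold apart in reads, where the background is 14.5%. Of the 24 genes 15 were higher and 9 lower in replicate 2, and their log2 differences had a median of 0.21 where that of all genes was set to 0. The median absolute log2 difference was 0.68 for the 24 genes and 0.40 for all genes at that level. For the 9 genes of the family at a mean of 10 TPM, the largest absolute difference was 0.83, that of Kcnj12, and all genes at that level had a median of 0.27.

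**Figure D4:**
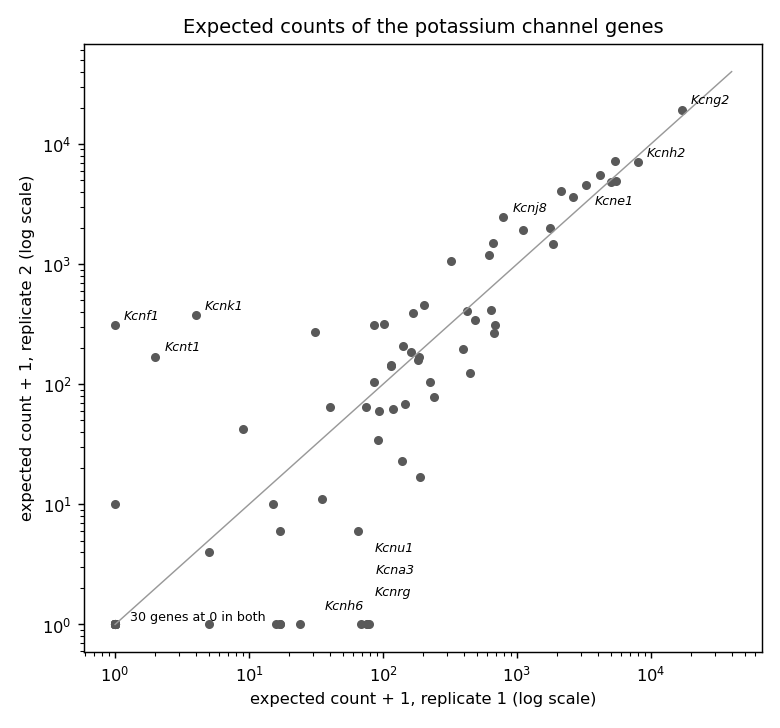
Expected count plus 1 of the 94 genes in replicate 1 (x axis) and replicate 2 (y axis), both on log scales, with the line of equality. Kcng2 and Kcnh2 lie near the line at the top right, while Kcnf1, Kcnk1 and Kcnt1 have 0 to 3 counts in replicate 1 and 168 to 376 in replicate 2, and Kcnu1, Kcna3, Kcnrg and Kcnh6 lie on the bottom edge with 67 to 77 counts in replicate 1 and 0 in replicate 2.

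Some genes of low count were read in 1 library alone. In 5 of the 94 genes, or 5.32%, one library held no count and the other at least 50, beside 2.14% of protein-coding genes. Kcnu1, Kcnrg, Kcna3 and Kcnh6 had 75, 75, 77 and 67 counts in replicate 1 and 0 in replicate 2, and Kcnf1 had 0 and 309. The floor of 3 counts covers counting error and not the spread between pools. Kcna3 is the voltage-gated channel of T lymphocytes, and the sum of the lymphoid markers was likewise higher in replicate 1. That sum was 9.59 TPM in replicate 1 and 1.15 TPM in replicate 2, but Cd3e of the same list had 0 counts in both. Kcnk1 had more counts in replicate 2, as did all 4 urothelial markers. The part of neither cell type was tested. The TPM intervals that the authors deposited for the replicates failed to overlap for 19 of the 24 genes, or 79.2%, and for 73.3% of all genes at that level.

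Transcript use could be compared for 15 of the 24 genes, those with at least 2 annotated transcripts. The leading transcript by TPM was the same in both libraries for 12, with Kcnip2, Kcnj3 and Kcnn2 as the exceptions. In 7 of the 15, or 46.7%, it held 80% or more of the gene in both libraries, beside 29.5% of all protein-coding genes compared. Among these were Kcne1, Kcnj12, Kcna4, Kcnmb4, Kcnn1 and Kcne3. The effective length differed by over 1.2-fold between libraries for Kcnq1, Kcnj3, Kcnn2 and Kcnip3, 16.7% of the 24 genes and 25.1% of all genes at that level.

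**Figure D5:**
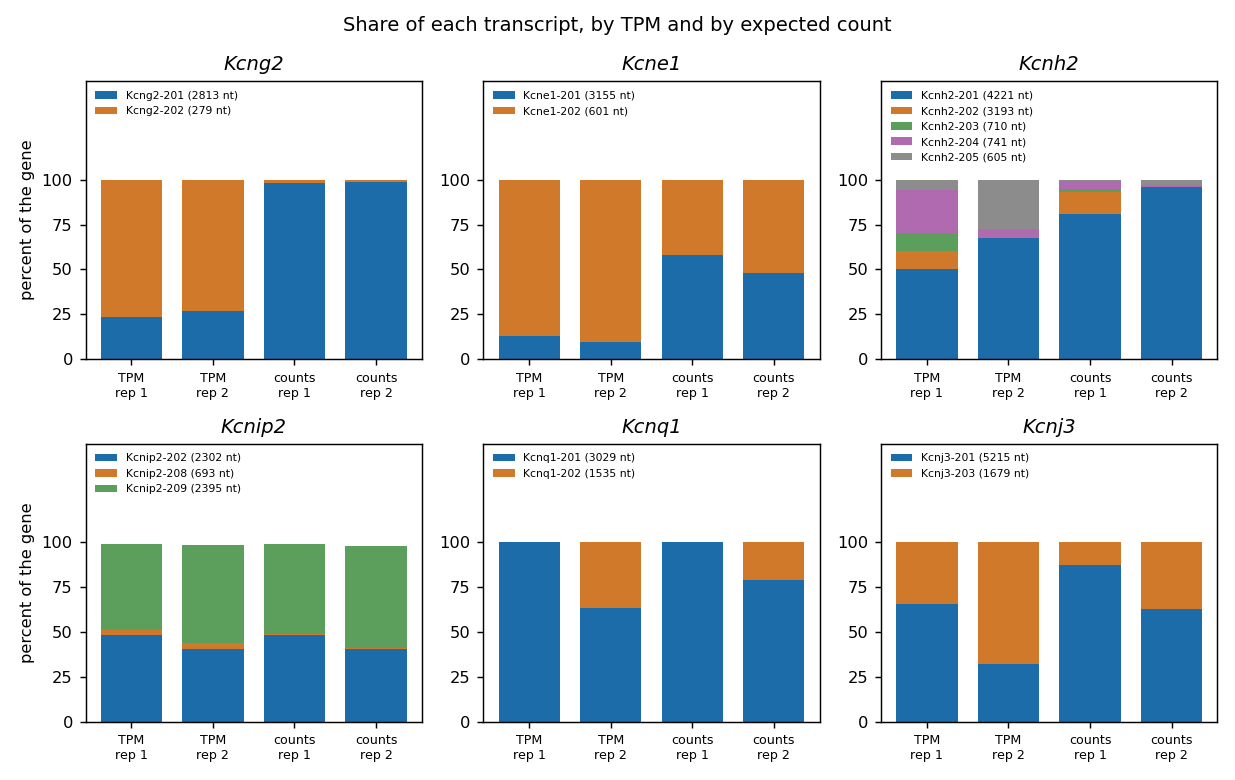
Percent of each gene's TPM (left pair of bars) and expected counts (right pair) given to its transcripts in replicate 1 and replicate 2, for 6 genes, with transcript lengths in the legends. The 279-nucleotide transcript of Kcng2 takes 76.6% and 73.3% of TPM but 1.66% and 1.17% of counts, and the 2 transcripts of Kcnq1 and Kcnj3 change share between libraries.

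Of 15 partner genes outside the family, 8 were detected. The pacemaker channel gene Hcn4 was at 3.37 TPM in replicate 1 and 2.31 TPM in replicate 2, and Hcn2 at 1.44 and 0.93 TPM. The scaffold Dlg1 was at 7.88 and 4.77 TPM, the anchoring protein Akap9, which docks regulators on the IKs channel, at 2.38 and 7.12, the ubiquitin ligase Nedd4l at 2.98 and 3.45 and the cotransporter Slc12a2 at 4.59 and 3.07. In reads the libraries lay close together for Dlg1, with 2021 and 2203 counts, and for Akap9, with 2308 and 2376. The TPM differences of Dlg1 and Akap9 were thus not seen in reads. Dpp6 and Dpp10, auxiliary subunits of Kcnd channels in neurons, had 26 and 0 counts in replicate 1 and 0 in replicate 2. The gamma subunits of large-conductance channels were as low, with Lrrc52 at 56 and 7 counts, Lrrc55 at 25 and 0 and Lrrc26 and Lrrc38 at 0 in both.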

How the data were processed

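Total RNA of 2 newborn heart pools was measured. Per the file headers the columns are those of the quantification program RSEM, and per the deposited notes the assembly was mm10 with GENCODE M4; no source used here gives the aligner, the versions, the strand setting or the level of the intervals. The authors' expected counts are fragments per gene or transcript, not normalized. The deposited TPM divides them by effective length and scales each table to 1 total. Deposited FPKM served as an alternative. Transcript share is a deposited percent of the gene's TPM, and the bounds of TPM intervals, a signal never below 0, were deposited too.

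Names, biotypes and sequences came from GENCODE M21 on GRCm38 by identifier without version. Of 99 genes with the root, 5 were not protein-coding. Differences were log2 of replicate 2 over replicate 1 with a pseudocount of 0.1 TPM, centred on the median gene (shift 0.02). With 1 group there was no test and no p-value, and replicate spread is the only error. The 2-fold calls were tested on simulated data. Scaling factors came from edgeR 4.0.16 and DESeq2 1.42.0 (R 4.3.3), with expected counts rounded first, and the rest from Python 3.11.15 with pandas 2.3.3, numpy 2.4.6, matplotlib 3.10.9 and scipy 1.17.1. Named were genes at 1 TPM in a library, all genes of the current, accessory, silent, neuronal, sodium-activated and partner lists and of the pairs, and up to 8 genes without counts a group. Kcnf1, Kcnu1, Kcna3, Kcnh6, Kcnk7 and the other Kcnh genes of the motif search were named after their values were seen. Marker lists were cardiomyocyte, atrial, sinus node, smooth muscle, pericyte, endothelial, fibroblast, neuronal, Schwann, lymphoid, urothelial, skeletal muscle, erythroid and macrophage. Values of some genes of these lists are not reported here, though counts and sums include them. The members, lists and pairs were chosen with earlier results of these data known. Other thresholds, pseudocounts, filters, units, scalings and estimates were tried, as were single replicates and, chosen after seeing the data, transcripts of 700 nucleotides or more.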

Additional observations from a re-analysis of the deposited data

Results flagged for a closer look

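Kcnq1ot1, the antisense RNA that shares the Kcn root but encodes no protein, stood out as a signal outside the measured family, since its reads were far above the floor of 3 counts. It had 3928 expected counts in replicate 1 and 3865 in replicate 2, or 0.44 and 0.41 TPM over its length, and its values lay closer together than those of most subunit genes. The other 4 noncoding genes with the root had none, except for Kcnmb4os2 with 35 counts in replicate 1 and 0 in replicate 2.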

How the results depend on the processing

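No paired analysis was possible because the series holds 1 group. Of the recomputed differences between libraries, 298 stayed on their side of 2-fold, 10 newly passed it and 12 no longer did, and no sign was turned for any called value. The 18 genes detected were 10 at 5 TPM and 36 by reads scaled to the library total and not divided by length, and the count within the lists was 10 at 5 TPM. Rescaled to protein-coding genes, the sums were 1514 TPM for the family, 783 for Kcng, 195 for Kcne, 182 for Kcnj, 82.9 for Kcnh, 72.1 for Kcnip, 62.3 for Kcnq and 61.5 for Kcnk, by construction, since fewer genes share the total. Over transcripts of 700 nucleotides or more they were 250.6 TPM for the family, 65.4 for Kcng, 10.5 for Kcne and 23.5 for Kcnip. With posterior mean estimates Kcnq summed to 28.8 TPM, Kcnd to 8.42 TPM and Kcnab to 2.08 TPM, against 20.9, 1.53 and 1.14 TPM, and for Kcnq1 and Kcnd3 the added TPM lay on transcripts with 0 counts. The 9 genes at least 2-fold apart were 3 with a pseudocount of 1 TPM, 29 with no filter and 1 at a mean of 5 TPM. The 5 unequal pairs were 9 with the limit from genes at 10 TPM and 3 with the 99th percentile. The 7 major transcripts were 12 at a share of 50% and 2 at a mean of 5 TPM. With 1 library left out, detected genes ranged from 22 to 24, unequal pairs were 6 either way and major transcripts ranged from 7 to 10. Low genes are limited by the spread between pools, which 2 libraries measure poorly.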

Other observations

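Other cell types in the tissue gave the setting of these values. Endothelial markers, 4 of 4 detected, summed to 117 TPM in replicate 1 and 111 TPM in replicate 2, and fibroblast markers, 4 of 4, to 138 and 179 TPM. Erythroid markers, 3 of 3, summed to 1371 TPM in replicate 1 and 1660 TPM in replicate 2, and macrophage markers, 3 of 3, to 15.4 and 21.6 TPM. Of the sinus node markers Hcn4 alone was detected, 1 of 3, with a sum of 3.96 TPM in replicate 1 and 2.34 TPM in replicate 2. Schwann cell markers, 0 of 4 detected, summed to 1.05 and 2.46 TPM. Of the skeletal muscle list 1 of 4 was detected, Ckm, which heart muscle also expresses, and Myod1 and Myog had no count, with a sum of 1581 TPM in replicate 1 and 1742 TPM in replicate 2.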
